A study of Ovis aries with 42 samples.

Results

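Genes of red blood cell formation and haem synthesis were followed in liver and gallbladder of wild-type (WT) sheep and of CF sheep, which carry a disrupted CFTR gene according to the study's title. The set held 35 genes named by symbol for their role, of 29832 genes in the deposited liver and gallbladder tables together. It comprised 7 transcription factors of the red cell lineage, 4 genes of erythropoietin sensing and iron uptake, 8 enzymes of haem synthesis or breakdown, 3 genes of globin and its chaperone, 8 of the red cell membrane and skeleton, 3 of blood group antigens and 2 ubiquitin ligases of red cell maturation. Each of the 35 had a row in both tables, and 34 passed the filter on low counts in each tissue. The exception was TSPO2, a haem and cholesterol binding membrane protein of red cell precursors, which was at 0 counts in the 24 liver libraries and had 19 counts in 1 of the 12 gallbladder libraries.

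Before the bone marrow takes over, the liver is the main site of blood formation in the mammalian fetus, and erythroblasts lie between its hepatocytes. GATA1 and its partners TAL1 and KLF1 switch on the globin, haem and membrane genes of the erythroblast, and erythropoietin keeps these cells alive through its receptor EPOR. Iron enters through the transferrin receptor TFRC and the mitochondrial carrier SLC25A37, and haem is assembled from glycine in a chain of enzymes that begins with ALAS2 and ends with FECH. Maturing cells then lay down a membrane anchored by SLC4A1 and spectrin, and lose their organelles and nucleus.

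Fetal liver came from 5 ages, written here as the day of gestation (d50, d65, d80, d100 and d120), and later liver was labelled term in WT and birth in CF. Gallbladder was sampled at d100, d120 and birth in WT and at d80, d100 and d120 in CF. Each group had 2 libraries of total RNA from frozen tissue, and no treatment is given for any of them. The labels name neither the kind of CFTR mutation nor the breed, and they do not say whether libraries came from separate pregnancies. Both libraries of a pair share the stem of a donor number in WT liver at d50, d80, d100 and d120, in CF liver at d65 and d80 and in WT gallbladder at d100, so p-values measure the spread between these samples. In the WT d100 gallbladder pair the donor numbers are SF152-1A and SF152-1B, and SF152-1 is also a WT d100 liver donor, so both libraries may come from 1 animal. Their counts were the closest of any pair, with a median chi-square of 2.89 over genes. One donor number, SF177-1, stands on a WT d65 liver library and on CF d100 libraries of both tissues, a conflict that the labels do not resolve. The columns of CF d100 gallbladder carry 1 library number with the letters a and b and were each read as 1 sample of that group. These counts had a median chi-square of 9.73, and repeat counts of 1 library would give 0.455.

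Library totals ran from 29705597 to 56808639 counts in liver and from 32374693 to 54443213 in gallbladder. Levels are given as CPM, the count scaled to library size with TMM factors (edgeR's scaling for library makeup), and a call means an adjusted p under 0.05 by edgeR's quasi-likelihood test over all genes of the tissue. CFTR itself was at 0.904 to 2.82 CPM in fetal WT liver and 0.684 to 17.3 CPM in fetal CF liver, and with the kind of mutation not stated its level does not check the genotype. Markers of hepatocytes, 22 genes, were all above 0 in every liver library and summed to 195966 to 373258 CPM in fetal liver. In gallbladder the 12 biliary epithelium markers summed to 1695 to 9391 CPM. Hepatocyte markers still summed to 103242 to 277695 CPM in fetal WT libraries and 2233 to 76318 CPM in CF libraries. A CF sum can rest largely on 1 gene: without TMM factors APOA1 was at 5194 CPM and ALB at 7.31 in CF d80 replicate 1. In CF d120 replicate 1 they were at 1683 and 79.3 CPM. The 22 genes had medians of 0.0758% and 0.129% of CF liver of the same stage in these 2 libraries. The WT d120 replicate 1 and CF d80 replicate 1 gallbladder libraries stood apart, with 15390 and 16817 genes above 0 against 18249 to 20598 in the others.

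In WT liver no age change of these genes passed the test between d50 and d120. On a line of log2 level against gestation day, 0 of 34 members were called in WT by edgeR, DESeq2 or limma voom, against 4.8% of all genes by edgeR. At an unadjusted p under 0.05 edgeR put 1 member lower (9.4% of all genes), and the median change from d50 to d120 was log2 -0.13 with 24 of 34 below 0. That median depended on single libraries: it was -0.37 with 32 of 34 below 0 without WT d120 replicate 1, and 0.05 with 15 of 34 below 0 without WT d120 replicate 2. In CF liver 12 of 34 fell and 0 rose, with a median of log2 -0.71 and 32 of 34 below 0. Of all genes 7.96% fell on the CF line, and their median change was 0.06 in CF and -0.06 in WT. The difference between the CF and WT lines was called for 0 of 34 members by edgeR, DESeq2 and limma voom, and for 0.00606% of all genes by edgeR. At an unadjusted p under 0.05 it was lower in CF for 10 members (5.37% of all genes) and higher for 1 (7.8%). The CF calls rest on d50 and d120 above all: 0 members were called over d50 to d100 alone, 2 without either CF d120 library, 1 without CF d50 replicate 1, 7 without CF d100 replicate 1 and 8 without CF d65 replicate 2. With libraries that share a donor stem summed to 1 unit, 3 were called. In bulk tissue, fewer red cell precursors and less of a transcript in each of them cannot be told apart.

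**Figure D1:**
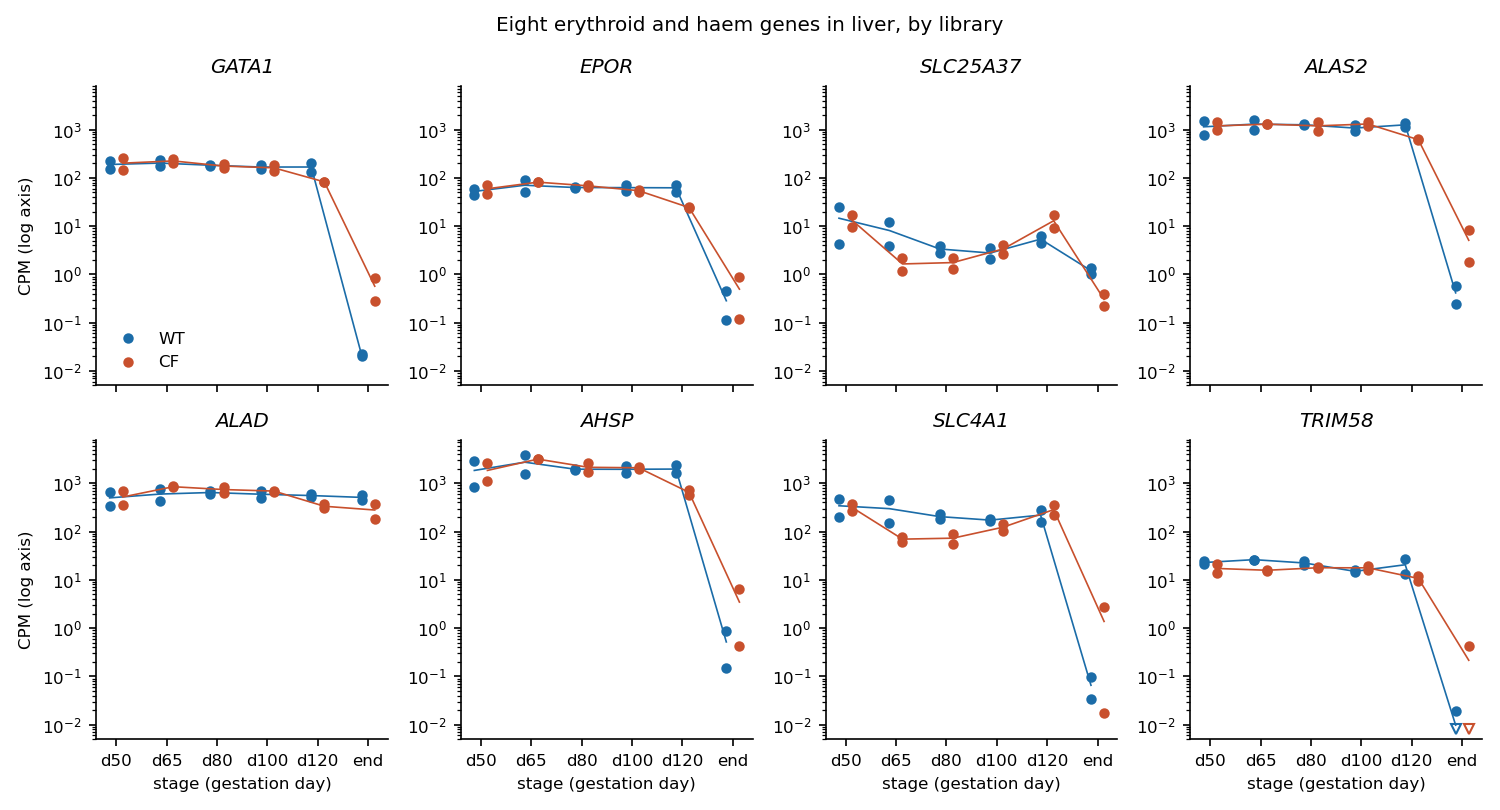
Level of 8 members in each liver library (CPM, log axis) by stage, WT in blue and CF in orange; points are libraries, lines join the means of 2 libraries, and open triangles at the foot mark libraries at 0. ALAD keeps its height between d120 and the end of gestation while the other 7 drop, SLC25A37 least, and the CF libraries of d120 lie below WT for GATA1, EPOR, ALAS2 and AHSP but not for SLC4A1 and SLC25A37.

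Among the transcription factors, GATA1, which opens the erythroid programme, was at 156 and 222 CPM at d50, 176 and 229 at d65, 185 and 179.5 at d80, 183 and 152 at d100 and 202 and 133 at d120 in WT liver. In CF liver GATA1 was at 257 and 146 CPM at d50, 248 and 200.1 at d65, 195 and 156 at d80, 141 and 181 at d100 and 81.2 and 83.6 at d120. The CF d120 libraries were the lowest of the 10 in CF and lay below both WT libraries of that stage, whereas the genotypes overlapped at each earlier stage. GATA1 fell with age in CF (log2 -1.26 ± 0.31, adjusted p = 0.0128) and had a value of log2 -0.25 ± 0.31 in WT (adjusted p = 0.736). TAL1, a basic helix-loop-helix partner of GATA1, was at 189.9 and 226 CPM at d50, 185 and 209.5 at d65, 172 and 170.3 at d80, 237 and 169 at d100 and 209 and 150.2 at d120 in WT. Its CF values were 233 and 209 CPM at d50, 229 and 221 at d65, 201 and 162 at d80, 175 and 209 at d100 and 124 and 92.9 at d120, again with the lowest CF libraries at d120. TAL1 also fell in CF (log2 -0.93 ± 0.26, adjusted p = 0.0243), as did NFE2, a bZIP factor that drives globin genes (log2 -1.11 ± 0.28, adjusted p = 0.0128). KLF1, the activator of adult-type globin and membrane genes, was at 164 and 261 CPM at d50, 173 and 334 at d65, 251 and 217 at d80, 295 and 189 at d100 and 269 and 174 at d120 in WT. It was at 293 and 161 CPM at d50, 371 and 375 at d65, 315 and 223 at d80, 232 and 273 at d100 and 92.5 and 103 at d120 in CF, where the d120 values were less than those of every other CF library, but its slope missed the threshold (log2 -1.27 ± 0.60, adjusted p = 0.155). HEMGN, GFI1B and SOX6, further nuclear regulators of the erythroblast, also missed it in CF, with adjusted p of 0.306, 0.102 and 0.154.

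Of the genes for erythropoietin sensing and iron supply, EPOR fell in CF and TFRC, SLC25A37 and SLC25A38 were not called. EPOR, the erythropoietin receptor, was at 44.8 and 59.8 CPM at d50, 50.8 and 89.7 at d65, 63.7 and 62.3 at d80, 72.6 and 52.8 at d100 and 72.7 and 51.6 at d120 in WT liver. It was at 72 and 46.7 CPM at d50, 81.9 and 80.8 at d65, 72.2 and 64.3 at d80, 52 and 56.4 at d100 and 24.1 and 24.4 at d120 in CF, the d120 pair standing apart from the remaining CF libraries. The CF slope of EPOR was log2 -1.34 ± 0.42, adjusted p = 0.037, and the call was lost without any of 7 single CF libraries. TFRC, which brings in transferrin-bound iron, was at 418 and 430.4 CPM at d50, 374 and 367 at d65, 299 and 396 at d80, 370.2 and 297 at d100 and 381 and 368 at d120 in WT and was not called in either genotype. In CF TFRC was at 465 and 378 CPM at d50, 269 and 401 at d65, 332 and 232 at d80, 313 and 423 at d100 and 287 and 227 at d120. SLC25A37, the mitoferrin that carries iron into erythroid mitochondria, was low and variable in WT, at 24.9 and 4.2 CPM at d50, 12.3 and 3.89 at d65, 2.77 and 3.95 at d80, 3.48 and 2.05 at d100 and 6.29 and 4.44 at d120. In CF it was at 9.71 and 16.7 CPM at d50, 2.14 and 1.15 at d65, 1.32 and 2.19 at d80, 2.7 and 4.04 at d100 and 16.7 and 9.08 at d120, highest at d50 and d120 and lowest at d65 and d80. Its slopes had opposite signs, log2 -1.65 ± 0.60 in WT and log2 0.64 ± 0.58 in CF, and neither was called (adjusted p = 0.132 and 0.478), nor was their difference (adjusted p = 0.329).

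The haem pathway held 6 of the 12 members that fell with age in CF liver, of 8 in the role. ALAS2, the erythroid enzyme of the rate-limiting step, was at 759 and 1523 CPM at d50, 984 and 1614 at d65, 1215 and 1297 at d80, 1224 and 926 at d100 and 1384 and 1124 at d120 in WT and its libraries of different stages overlapped. In CF it was at 1423 and 960.1 CPM at d50, 1293 and 1294 at d65, 1452 and 937 at d80, 1188 and 1426 at d100 and 632 and 603 at d120, lowest at d120, with a slope that was not called (log2 -0.79 ± 0.45, adjusted p = 0.239). UROS, which closes the porphyrin ring, fell in CF (log2 -0.85 ± 0.21, adjusted p = 0.0113) and so did UROD, the decarboxylase that follows (log2 -1.47 ± 0.44, adjusted p = 0.0308). CPOX and PPOX, the mitochondrial oxidases that follow, fell as well (log2 -1.35 ± 0.26, adjusted p = 0.00283, and log2 -1.21 ± 0.30, adjusted p = 0.0134). CPOX had the smallest adjusted p of the members and lost its call in 1 of 17 alternatives, that over d50 to d100 alone. FECH, which inserts iron into the ring, was at 474 and 531 CPM at d50, 351 and 299.5 at d65, 347 and 420.5 at d80, 368 and 329 at d100 and 410.0 and 344 at d120 in WT. In CF FECH was at 526 and 439.5 CPM at d50, 244 and 321 at d65, 270.0 and 205 at d80, 286 and 322 at d100 and 265 and 214 at d120 and fell (log2 -0.72 ± 0.21, adjusted p = 0.0244), but its higher values stood at d50 and the later stages overlapped. BLVRB, a biliverdin reductase of red cells, fell too (log2 -1.51 ± 0.42, adjusted p = 0.0223). ALAD, which joins the precursors of the pyrrole ring and is made in hepatocytes as well, had log2 -0.70 ± 0.34 in CF and log2 0.10 ± 0.34 in WT and was called in neither. Averaged over genotypes, FECH was the 1 member called between adjacent fetal stages, lower at d65 than at d50 (log2 -0.70 ± 0.16, adjusted p = 0.0479, with 0.466% of all genes lower), and that call was lost in 9 of 13 alternatives, 6 of which left out 1 library. In the later steps edgeR called 0 of 34 members from d65 to d80 (0.151% of all genes), from d80 to d100 (0%) and from d100 to d120 (0.436%). DESeq2 called 0, 0 and 2, limma voom 0 in each, and at an unadjusted p under 0.05 edgeR counted 0, 0 and then 7 lower (9.59% of all genes) and 1 higher (10.5%).

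AHSP, the chaperone that holds free alpha globin, was at 847 and 2842 CPM at d50, 1562 and 3907 at d65, 1913 and 2001 at d80, 2276 and 1619 at d100 and 2344 and 1596 at d120 in WT liver. It was at 2571 and 1119.6 CPM at d50, 3113 and 3219.6 at d65, 2596 and 1688 at d80, 1968 and 2219 at d100 and 583 and 714 at d120 in CF, with both d120 libraries under the lowest CF library of the earlier stages. Its slope had a large error and was not called (log2 -1.53 ± 0.72, adjusted p = 0.155). HBM, an alpha-like globin of the erythroblast, was at 318 and 945 CPM at d50, 432 and 947 at d65, 635 and 681 at d80, 677 and 452 at d100 and 685 and 516 at d120 in WT and 822 and 330.0 CPM at d50, 906 and 1019 at d65, 947 and 529 at d80, 637 and 869 at d100 and 175 and 254 at d120 in CF. Its CF slope was log2 -1.38 ± 0.52, adjusted p = 0.0801. HBQ1, the theta globin gene, fell in CF (log2 -1.99 ± 0.43, adjusted p = 0.00667), from 15.1 to 69.8 CPM over d50 to d100 to 5.65 and 8.62 CPM at d120, and over d50 to d100 alone its change was 0.0024 on the log2 scale.

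Of the 7 membrane and skeleton genes tested, SPTB alone fell in CF. SLC4A1, the anion exchanger known as band 3 that anchors the skeleton, was at 480.4 and 203 CPM at d50, 447 and 148 at d65, 181 and 227 at d80, 181 and 163 at d100 and 280.4 and 157 at d120 in WT. In CF it was at 264 and 366 CPM at d50, 78 and 61 at d65, 55.3 and 90.4 at d80, 101 and 145 at d100 and 347 and 222 at d120. The CF libraries of d65, d80 and d100 lay below every WT liver library of the fetal stages, with 1 at d100, 145 CPM, close to the lowest in WT, 148. The CF libraries of d50 and d120 lay within the WT range. No line describes such a course, and the slopes were log2 -0.79 ± 0.71 in WT and log2 0.39 ± 0.71 in CF (adjusted p = 0.614 and 0.762). SPTB, the beta chain of spectrin, ran between 224 and 363 CPM in WT and fell in CF (log2 -0.997 ± 0.295, adjusted p = 0.0293), to 171 and 145 CPM at d120. ANK1, EPB41, EPB42, DMTN and TMCC2 had CF values between log2 -0.60 ± 0.57 and log2 -0.36 ± 0.23 and none was called. RHAG, the ammonium channel subunit of the Rh complex, was at 218 and 249 CPM at d50, 232 and 235 at d65, 218 and 226 at d80, 245 and 191 at d100 and 249 and 208 at d120 in WT and 265 and 208 CPM at d50, 139.5 and 183 at d65, 189.5 and 124 at d80, 201 and 206 at d100 and 148 and 121 at d120 in CF and was called in neither genotype. TRIM58, a ubiquitin ligase that acts as erythroblasts lose their nucleus, was at 20.9 and 24.6 CPM at d50, 26.1 and 26.1 at d65, 24.1 and 20.5 at d80, 15.6 and 14.3 at d100 and 27.6 and 13.4 at d120 in WT and 20.8 and 13.5 CPM at d50, 15.5 and 16 at d65, 18.3 and 17.2 at d80, 16.1 and 19.3 at d100 and 12 and 9.37 at d120 in CF. Its slopes were log2 -0.44 ± 0.46 and log2 -0.51 ± 0.46, and like KEL, ERMAP and TRIM10 it was not called.

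**Figure D2:**
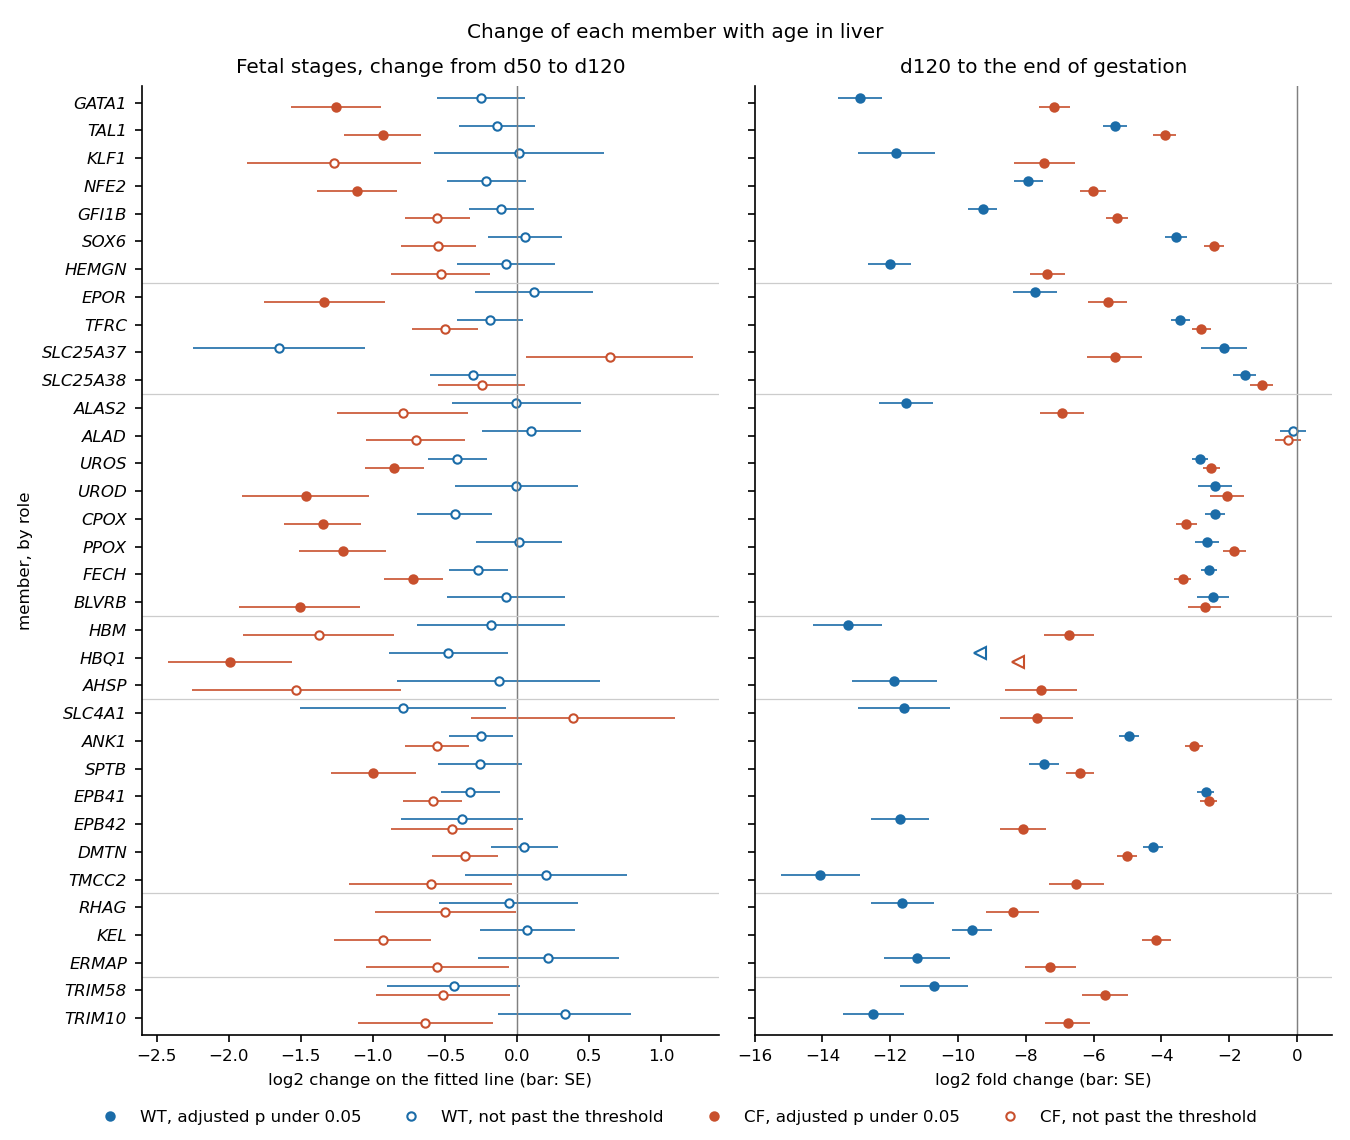
Log2 change of each of 34 members in liver with its standard error, ordered by role, WT in blue and CF in orange; left, the change from d50 to d120 on a line through 5 stages, right, the change from d120 to the end of gestation. Filled points passed an adjusted p of 0.05, and open arrowheads for HBQ1 mark a bound set by 3 counts. In the left panel the 12 filled points belong to CF, and in the right panel ALAD alone is open at both.

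In the mean of the 5 fetal stages 2 of 34 members were lower in CF liver than in WT and 0 higher. The median of the members was log2 -0.25 with 30 of 34 below 0, against a median of -0.05 for all genes, of which 1.69% were called lower. UROS was lower in CF (log2 -0.57 ± 0.10, adjusted p = 0.00409). It was at 52 and 67.4 CPM at d50, 50.1 and 51.4 at d65, 49.6 and 55.5 at d80, 47 and 39.8 at d100 and 54.7 and 35.2 at d120 in WT and 69.4 and 44.2 CPM at d50, 32.6 and 30.8 at d65, 28.7 and 26.5 at d80, 31.7 and 35 at d100 and 27.4 and 23.7 at d120 in CF, without overlap at d65, d80, d100 and d120 and with overlap at d50. SLC25A38, the glycine carrier that feeds the first step of haem synthesis, was also lower (log2 -0.60 ± 0.15, adjusted p = 0.0404). Its WT values were 14.3 and 9.35 CPM at d50, 14.1 and 10.9 at d65, 12.4 and 11 at d80, 11.5 and 8.28 at d100 and 12.8 and 7.7 at d120, and its CF values were 10.1 and 11.9 CPM at d50, 7.96 and 5.75 at d65, 4.38 and 5.08 at d80, 6.99 and 8.77 at d100 and 6.56 and 8.9 at d120. With 1 unit per donor stem neither was called (UROS then had an adjusted p of 0.161), and SLC25A38 lost its call in 17 of 27 alternatives, 15 of which left out a single library. Without d120 the members' median was -0.08 and 21 of 34 were below 0.

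At single fetal stages edgeR called 0 of 34 members at d50, d65, d80, d100 and d120, where each genotype had 2 libraries. Of all genes it called 0%, 1.65%, 0.0727%, 0.0424% and 0.0242%. DESeq2 called 0, 1, 2, 0 and 4 members and limma voom 0 at each stage. At an unadjusted p under 0.05 edgeR put 0 members lower at d50 (1.19% of all genes), 5 at d65 (13.7%), 4 at d80 (5.86%), 0 at d100 (2.6%) and 18 at d120 (7.99%), and 2 higher at d65 (5.04%) with 0 higher at the other stages. Whether the 2 libraries of a genotype lay wholly below the other gave a description of each stage. At d50 this held for 1 member (11.4% of all genes), at d65 for 15 (27.7%), at d80 for 16 (26.2%), at d100 for 4 (21.4%) and at d120 for 29 (27.1%). At d50 12 of 34 members had a value below 0 and at d100 18 of 34, against 32 of 34 at d120.

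At d120 the members' median was log2 -0.83 with 32 of 34 below 0, against 0.03 for all genes. The lower values ran through each role, with medians of -0.73 for transcription factors, -0.92 for haem enzymes and -1.48 for globin genes and their chaperone. The median stayed between -0.54 and -1.10 when each of the 4 libraries was left out in turn. UROS had the smallest p (log2 -0.81 ± 0.23, adjusted p = 0.203), followed by NFE2 (log2 -1.07 ± 0.31, adjusted p = 0.209) and PPOX (log2 -1.14 ± 0.34, adjusted p = 0.218). The largest values belonged to AHSP (log2 -1.60 ± 0.81), HBM (log2 -1.48 ± 0.59) and HBQ1 (log2 -1.47 ± 0.47). AHSP stood at 583 and 714 CPM in CF against 2344 and 1596 in WT. The libraries also differed in makeup, with 17206 and 16766 genes above 0 in CF and 16241 and 15722 in WT. Their TMM factors were 1.36 and 1.11 in CF and 0.916 and 0.946 in WT, and the part of this difference was not tested. SLC4A1 (log2 0.38 ± 0.79) and SLC25A37 (log2 1.27 ± 0.66) were the 2 members above 0, and SLC25A37 was the 1 member whose CF libraries lay wholly above WT (31% of all genes). Megakaryocyte and cell cycle genes had lower values at this stage as well, with medians of -1.13 for 10 and -0.71 for 16 genes. Medians were -0.14 for 22 hepatocyte genes, -0.03 for 12 macrophage genes and 0.76 for 12 biliary genes. Of these lists edgeR called 0 genes at d120. At an unadjusted p under 0.05, 12 megakaryocyte and cell cycle genes were lower (7.99% of all genes). Macrophage and biliary genes had 8 higher, for which no share over all genes is given. Granulocyte markers overlapped, with sums of 116 to 133 CPM in CF and 129 to 171 in WT. Blood stem and progenitor markers summed to 67.1 to 75.7 CPM in CF and 129 to 161 in WT. The part of all these lists in the members' values was not tested.

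**Figure D3:**
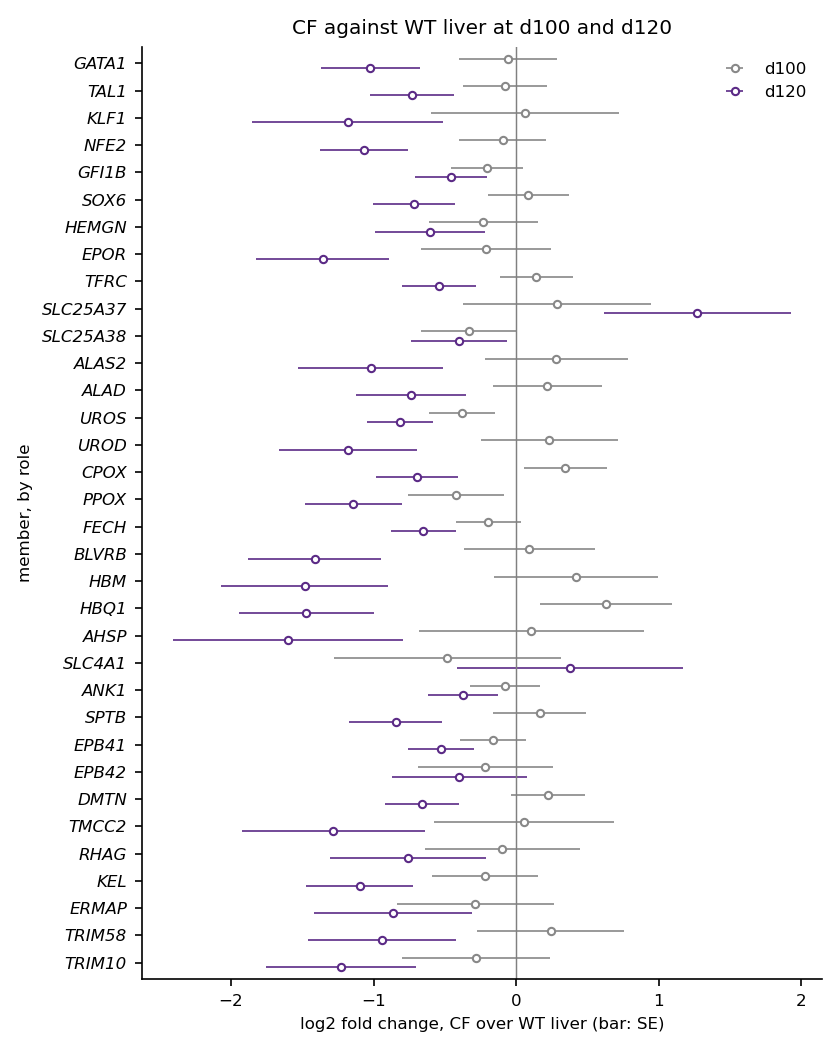
Log2 fold change of CF over WT liver for 34 members at d100 (grey) and d120 (purple), with standard errors from 2 libraries per group; open points did not pass an adjusted p of 0.05. At d100 the values lie on both sides of 0 and at d120 32 of 34 lie below it, with SLC25A37 and SLC4A1 above.

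Between d120 and the end of gestation the red cell and haem genes other than ALAD fell steeply in liver of both genotypes. In WT 33 of 34 members fell, with a median of log2 -7.83, while 18.5% of all genes fell. The WT term libraries are numbered far from the other RNA libraries, and the labels do not say whether they were prepared apart. If they were, age and library preparation cannot be told apart in WT. In CF 33 of 34 fell as well, with a median of -5.49, and 8.39% of all genes fell. Setting the 1 gene without later counts at its bound left both medians as they were. ALAD was the exception in each genotype, at 599.7 and 513 CPM in WT at d120 and 458 and 562 at term (log2 -0.13 ± 0.38, adjusted p = 0.831). In CF ALAD went from 300.2 and 367 to 377 and 182 CPM (log2 -0.26 ± 0.38, adjusted p = 0.719). At term 18 of 34 members were below 1 CPM in both WT libraries, and at birth 9 of 34 were in both CF libraries.

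The falls in WT ran from log2 -1.55 for SLC25A38 to -14.06 for TMCC2, which like other members at traces rests on few counts at term. AHSP went from 2344 and 1596 CPM to 0.879 and 0.152 in WT (log2 -11.88 ± 1.26, adjusted p = 1.54e-06), from 161472 counts to 54 over the 2 libraries. ALAS2 went from 1384 and 1124 CPM to 0.584 and 0.243 (log2 -11.54 ± 0.80, adjusted p = 1.1e-08), and HBM to 0.0611 and 0.0666 (log2 -13.26 ± 1.02, adjusted p = 3.93e-08). SLC4A1 was at 0.0344 and 0.0959 CPM at term (log2 -11.59 ± 1.36, adjusted p = 4.2e-06) and RHAG at 0.0794 and 0.0629 (log2 -11.65 ± 0.93, adjusted p = 5.68e-08). KLF1 was at 0.0169 and 0.111 CPM (log2 -11.82 ± 1.14, adjusted p = 5.02e-07), EPOR at 0.455 and 0.113 (log2 -7.72 ± 0.65, adjusted p = 1.08e-07) and TAL1 at 4.85 and 3.85 (log2 -5.37 ± 0.36, adjusted p = 6.74e-09). Some genes were left with so few counts that the ratio is known only within wide limits. GATA1 had 13699 counts at d120 and 2 at term, a ratio of 8236 with a 95% counting interval of 2280 to 68018, and TRIM58 had 1630 and 1, a ratio of 1960 with an interval of 351 to 77465. HBQ1 had 0 counts at term, at least 659-fold lower with 3 counts over both libraries taken as the limit.

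Other members fell less. ANK1 had log2 -4.97 and DMTN -4.26. FECH went from 410.0 and 344 to 66.3 and 57.8 CPM (log2 -2.60 ± 0.24, adjusted p = 3.24e-07), and the 7 haem enzymes apart from ALAS2 lay between log2 -2.86 for UROS and -0.13 for ALAD. TFRC was still at 35.2 and 33.5 CPM at term (log2 -3.44 ± 0.28, adjusted p = 8.06e-08). SLC25A37 went from 6.29 and 4.44 to 1.38 and 1.01 CPM (log2 -2.16 ± 0.69, adjusted p = 0.0215) and lost that call in 4 of 9 alternatives, among them those without WT d120 replicate 1 or without either term library, and in CF it fell as well (log2 -5.38 ± 0.80, adjusted p = 0.000171). Of 22 hepatocyte markers 7 rose and 5 fell in this step in WT (median 0.54), and all 16 cell cycle genes fell (median -2.73).

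In CF liver the same genes fell from d120 to birth. AHSP went from 583 and 714 to 6.49 and 0.421 CPM (log2 -7.55 ± 1.05, adjusted p = 8.8e-05) and ALAS2 from 632 and 603 to 8.37 and 1.79 (log2 -6.92 ± 0.65, adjusted p = 1.25e-06). GATA1 was at 0.852 and 0.284 CPM at birth (log2 -7.16 ± 0.46, adjusted p = 1.8e-08), KLF1 at 1.09 and 0 (log2 -7.45 ± 0.90, adjusted p = 1.9e-05) and SLC4A1 at 2.72 and 0.0172 (log2 -7.68 ± 1.07, adjusted p = 8.8e-05). The CF birth libraries differed from each other more than any other liver pair, with a median chi-square over genes of 55.0, and replicate 1 lay above replicate 2 for these 5 genes. FECH was at 25.7 and 20.5 CPM (log2 -3.37 ± 0.25, adjusted p = 9.12e-08), TFRC at 31.7 and 41.1 (log2 -2.82 ± 0.28, adjusted p = 2.02e-06) and HBQ1 at 0 counts, at least 301-fold lower than at d120 by the same limit. EPOR was at 0.872 and 0.116 CPM, TAL1 at 4.55 and 9.93, RHAG at 0.774 and 0, HBM at 3.27 and 0.766, TRIM58 at 0 and 0.43 and SLC25A37 at 0.216 and 0.391, each a called fall.

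At the end of gestation 15 of 34 members were higher and 5 lower in CF than in WT, against 17% of all genes higher and 16.8% lower. Most of the higher members were at traces in both: HEMGN (log2 4.04 ± 0.56, adjusted p = 3.97e-05) was at 2.75 and 0.841 CPM in CF and 0.174 and 0.0456 in WT. KEL, the Kell blood group protein, was at 2.44 and 1.61 CPM against 0 and 0.211 (log2 4.33 ± 0.56, adjusted p = 2.39e-05), and TMCC2 at 6.05 and 0.307 against 0.0443 and 0.049 (log2 6.26 ± 1.05, adjusted p = 0.000222). The other members higher in CF were AHSP, ALAS2, GATA1, KLF1, SLC4A1, HBM and TRIM58, whose levels stand above, with ANK1, EPB42, ERMAP, GFI1B and TRIM10. ANK1 was at 13.4 and 10.9 CPM in CF against 3.05 and 5.26 in WT, and GFI1B at 0.351 and 0.602 against 0.0341 and 0.0371. TRIM10 was at 3.83 and 0.667 CPM against 0.162 and 0.0193, EPB42 at 0.554 and 0.0166 against 0.0575 and 0 and ERMAP at 0.678 and 0 against 0.0191 and 0.0612, with adjusted p of 0.000211 for ANK1, 4.58e-05 for GFI1B, 0.000248 for TRIM10, 0.0237 for EPB42 and 0.0442 for ERMAP. Without CF birth replicate 1 the values of AHSP (-0.29), EPB42 (-0.75), ERMAP (-4.07), KLF1 (-4.63) and SLC4A1 (-1.91) turned negative and the median of the members was -0.35, and without CF birth replicate 2 TRIM58 was at -2.32. The lower members were FECH (log2 -1.42 ± 0.23, adjusted p = 0.000181), DMTN (log2 -1.42 ± 0.27, adjusted p = 0.000617), CPOX (log2 -1.55 ± 0.30, adjusted p = 0.000673), BLVRB (log2 -1.65 ± 0.47, adjusted p = 0.0115) and SLC25A37 (log2 -1.96 ± 0.74, adjusted p = 0.0499). DMTN, a protein that bundles actin, was at 5.31 and 3.23 CPM in CF against 11 and 11.9 in WT, CPOX at 23.7 and 20.8 against 86.9 and 43.1 and BLVRB at 50.2 and 19.2 against 101 and 117, without overlap. The libraries of the groups did not overlap for 9 of the 15 higher members (30.8% of all genes lay wholly higher), the exceptions being AHSP, EPB42, ERMAP, KLF1, SLC4A1 and TRIM58. In the set, 9 members lay wholly lower (31.4% of all genes), among them the 5 called. Of the 20 calls 11 held in all 9 alternatives. Hepatocyte markers differed at this stage too, with 15 of 22 lower in CF, and their sums were 41470 and 157299 CPM in CF against 224903 and 234178 in WT. Biliary epithelium markers summed to 486 and 672 CPM in CF and 301 and 343 in WT, and their part was not tested. The stage label also differs, term in WT and birth in CF, and the WT term libraries are numbered far from the other RNA libraries. Genotype, stage label and any difference in library preparation, which the labels do not state, cannot be told apart here.

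Other genes of the red cell gave the background to this course. HBZ, the embryonic zeta globin gene, fell with age in WT (log2 -3.84 ± 0.62, adjusted p = 0.00119) and CF (log2 -4.51 ± 0.63, adjusted p = 0.000214). HBB, listed under the adult beta globin symbol, rose in WT (log2 6.07 ± 1.01, adjusted p = 0.0014) and CF (log2 5.38 ± 0.98, adjusted p = 0.00174). The rows HBA1 and HBG, alpha and fetal-type beta globin, together took 10.9% to 19.9% of all counts in fetal WT liver, 7.31% to 20.1% in fetal CF liver, 0.00277% to 0.00686% at WT term and 0.0208% to 0.122% at CF birth. Set against HBB plus HBG, HBB made up 0.0734% and 0.191% at d50, 15.6% and 5.68% at d120 and 73% and 98.7% at term in WT, and 0.15% and 0.165% at d50, 14.9% and 17.6% at d120 and 95% and 91% at birth in CF. Sheep beta-like globin genes are near-identical copies, so reads may be shared between these rows and the values are uncertain. Of 28 other erythroid genes tested, 2 rose and 1 fell with age in WT, where 4.8% of all genes were called in either direction. In CF 3 rose and 9 fell, while 7.96% of all genes fell. No share over all genes is given for the rises. LMO2, a bridging protein of the GATA1 complex (log2 -1.34 ± 0.24, adjusted p = 0.00164), and TMOD1, a tropomodulin of the membrane skeleton (log2 -1.24 ± 0.27, adjusted p = 0.00607), were among the 9. Over the fetal mean TSPAN33, a tetraspanin of erythroid progenitors, was the 1 other erythroid gene called, lower in CF (log2 -1.73 ± 0.28, adjusted p = 0.00211), with 1.69% of all genes lower. From d120 to the end 20 of 28 fell in each genotype, against 18.5% of all genes in WT and 8.39% in CF. TMOD1 was among them in WT (log2 -5.90 ± 0.38, adjusted p = 5.18e-09).

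The wider haem and iron genes split. Of 24, 1 fell with age in WT, where 4.8% of all genes were called in either direction. In CF 9 fell, against 7.96% of all genes, and 1 rose. The mitochondrial transporter gene ABCB10 was among the 9 (log2 -0.88 ± 0.19, adjusted p = 0.00557). From d120 to term in WT 8 rose and 9 fell, while 18.5% of all genes fell and no share is given for rises. ALAS1, the form of the first haem enzyme that hepatocytes use, rose (log2 4.56 ± 0.35, adjusted p = 4.19e-08) as ALAS2 fell, and ABCB6, a porphyrin transporter, fell (log2 -2.95 ± 0.32, adjusted p = 1.96e-06). ALAS1 was at 23.1 and 21.8 CPM at d120 and 370.5 and 690.0 at term in WT. In CF it was at 33 and 36.2 and then 61.5 and 36.9 CPM (log2 0.51 ± 0.31, adjusted p = 0.303), and CF birth was below WT term (log2 -3.43 ± 0.33, adjusted p = 1.72e-06). The comparisons with WT term carry the limit of library numbering given above. EPO, the hormone itself, stayed at or under 0.381 CPM in every library of both tissues. Of 11 erythropoietin signalling genes 1 was called on the CF line, GAB1, an adaptor protein (log2 -0.66 ± 0.19, adjusted p = 0.0264). On that line 7.96% of all genes fell, so the count does not set this list apart.

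Within the 10 fetal liver pairs most members stood in the same order as AHSP: 26 of the other members did so in at least 7 pairs, and 6 stood in the order of SLC4A1 in at least 8. No share over all genes is given for these counts, so they do not set the members apart from other genes. HBM stood in the same order as AHSP in 10, and KLF1, ALAS2, ALAD, CPOX, PPOX, DMTN, TMCC2 and RHAG in 9. SLC25A37 and EPB41 stood in the same order as SLC4A1 in 10 of 10 pairs and ANK1 and EPB42 in 9, but AHSP did so in 4. The ratio of AHSP to SLC4A1, in CPM, ran from 1.76 to 26.4 in fetal WT liver and from 1.68 to 52.7 in fetal CF liver. It was lowest in CF d120 replicate 1 and WT d50 replicate 1, and highest in CF d65, at 39.9 and 52.7, and CF d80 replicate 1, at 47.0. Those 3 libraries had 14769 to 14837 genes above 0, the fewest of the fetal liver libraries, and the 2 libraries with the lowest ratios had the most, 17206 and 17249. The ratio of a short to a long hepatocyte transcript, APOC3 to APOB, was 0.875 and 0.509 in the libraries with the lowest ratios and 1.51, 1.81 and 3.19 in those with the highest. Between these extremes the 2 ratios did not rank alike. APOC3 to APOB was highest in CF d100 replicate 2, at 3.57, where AHSP to SLC4A1 was 15.3. In WT d50 replicate 2 the values were 0.738 and 14.0, and in WT d80 replicate 1 they were 2.63 and 10.6. The part of detection and of RNA quality in this split was not tested.

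Gallbladder is not a site of blood formation, and its red cell transcripts were set beside hepatocyte transcripts in each library. Tables of the tissues were made separately, so levels set across them are a description. In the WT d100 gallbladder libraries the members had a median of 82.1% and 85.9% of the plain CPM of WT d100 liver, and 22 hepatocyte genes had 68.3% and 72.9%. Across 15356 genes these libraries had rank correlations of 0.939 and 0.940 with WT d100 liver, where genes are not independent replicates. At WT d120 the members had 18.7% and 23.7% and hepatocyte genes 29.8% and 28.8%. The median share of the members was thus above the hepatocyte share at d100 and below it at d120, but single members differed. At d100 34 members lay above it in replicate 1 and 29 in replicate 2, where AHSP, HBM, KLF1, ALAD and BLVRB lay below. At d120 9 and 10 of 34 lay above it, among them AHSP, HBM and HBQ1 in both libraries.

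In CF gallbladder the median share of the members stood above that of hepatocyte genes in each of 6 libraries, a median that includes genes other cells also use. At d80 the members had 3.94% and 11.1% of the CF liver level and hepatocyte genes 0.0758% and 2.75%. At d100 the members had 6.06% and 6.75% and hepatocyte genes 3.03% and 2.52%. In both d100 libraries 29 of 34 members lay above the hepatocyte share, and AHSP, HBM, HBQ1, KLF1 and GATA1 lay below it, AHSP at 1.12% and 0.764% and GATA1 at 2.75% and 1.91%. At d120 replicate 1 had 11.9% and 0.129%, and replicate 2 had 49.0% and 30.8%. ALB, the main hepatocyte product, was at 61.9 and 21000.5 CPM in replicates 1 and 2 of CF d120, and ALAS2 at 106 and 297 CPM. At WT birth, when these transcripts were at traces in liver, the members had 217% and 127% of the WT term liver level, and hepatocyte genes 36.2% and 11.6%.

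**Figure D4:**
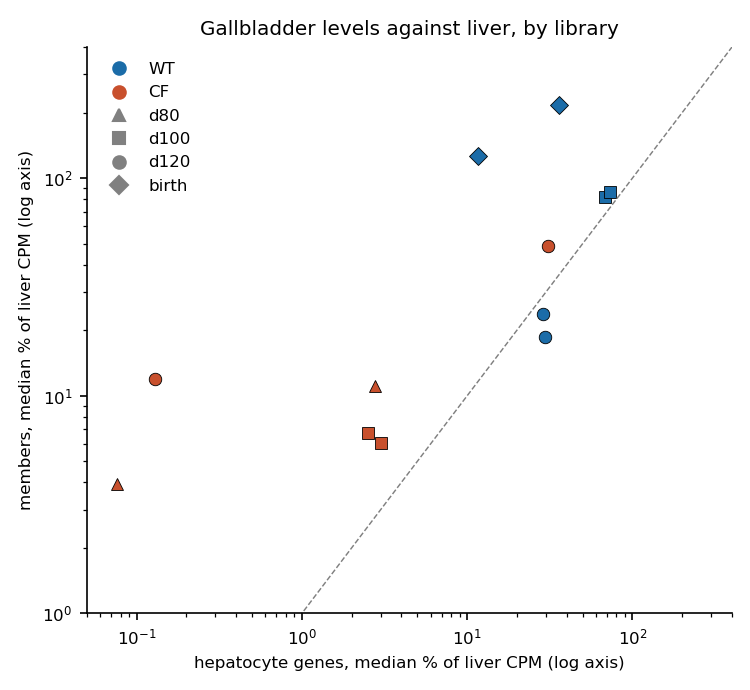
Median level of 34 members (vertical, percent of the liver group of the same genotype and stage) against that of 22 hepatocyte genes (horizontal) in 12 gallbladder libraries, both on log axes, with a dashed line of equal shares; WT is blue and CF orange, and triangles, squares, circles and diamonds are d80, d100, d120 and birth. WT d100 and d120 lie near the line, and the CF libraries lie above it, farthest at the lowest hepatocyte shares.

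In the fetal gallbladder mean of d100 and d120, 24 of 34 members were lower and 0 higher in CF, with a median of log2 -2.45, while 20.1% of all genes were called lower. With 1 unit per donor stem, which joins the WT d100 pair, 18 of the 24 were called. Values below are those of both d100 libraries and then both d120 libraries. KLF1 was at 246 and 222 CPM at d100 and 97.4 and 66.3 at d120 in WT, and 2.53 and 2.43 and 6.77 and 32.2 in CF (log2 -4.32 ± 0.46, adjusted p = 0.00164). AHSP was at 1928 and 1705 and 836 and 694 CPM in WT against 16.6 and 11.2 and 41.7 and 192 in CF (log2 -4.87 ± 0.73, adjusted p = 0.00396). ALAS2 was at 1076 and 1087 and 446 and 322 CPM in WT against 38 and 38 and 106 and 297 in CF (log2 -2.88 ± 0.58, adjusted p = 0.00806). GATA1 was at 181 and 189 and 39.8 and 39.3 CPM in WT against 3.12 and 2.15 and 6.82 and 36.5 in CF (log2 -3.50 ± 0.48, adjusted p = 0.00322), with CF d120 replicate 2 close to the WT d120 pair. For these 4 genes every CF library lay below every WT library, as for 13 of 34 members and 21.5% of all genes. ALAD was at 625 and 561 and 467 and 313 CPM in WT against 59.7 and 66.1 and 73.1 and 130.1 in CF (log2 -2.59 ± 0.28, adjusted p = 0.00185). UROD was at 409 and 350.2 and 323 and 248 CPM in WT against 40 and 26.9 and 29.3 and 72.6 in CF (log2 -2.99 ± 0.42, adjusted p = 0.00336). BLVRB (log2 -3.71 ± 0.51, adjusted p = 0.00322) and HBQ1 (log2 -4.86 ± 0.63, adjusted p = 0.00287) were lower too, and with KLF1, ALAD and UROD they were the 5 members called in all 15 alternatives. TAL1 (log2 -2.29 ± 0.45, adjusted p = 0.00781), EPOR (log2 -3.22 ± 0.48, adjusted p = 0.00389), RHAG (log2 -2.51 ± 0.64, adjusted p = 0.0162) and FECH (log2 -1.73 ± 0.46, adjusted p = 0.018) were lower as well, as were HBM and CPOX, DMTN, ERMAP, HEMGN, KEL, NFE2, PPOX, SPTB, TMCC2, TRIM10 and UROS. At d120 alone TAL1, RHAG, FECH, CPOX, HEMGN, SPTB and UROS had values above 0, between 0.045 and 0.46.

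SLC4A1, for which the groups overlapped, was not called between gallbladder genotypes, at 208 and 289 CPM at d100 and 4.41 and 12 at d120 in WT, and 21.8 and 27 and 40.5 and 367 in CF (log2 0.64 ± 0.88, adjusted p = 0.571). TFRC (log2 -0.72 ± 0.60, adjusted p = 0.349), SLC25A37 (log2 2.10 ± 1.14, adjusted p = 0.157) and TRIM58 (log2 -1.30 ± 0.73, adjusted p = 0.165) also missed the threshold. TFRC is used by many cell types, and its gallbladder values ran from 407 and 369 CPM at WT d100 to 155 and 377 at CF d120. SLC25A37 was at 3.46 and 4.64 CPM at d100 and 1.36 and 0.395 at d120 in WT and 3.5 and 6.4 and 5.99 and 20.2 in CF. TRIM58 was at 16.8 and 16.1 and 4.82 and 4.66 CPM in WT and 1.13 and 2.07 and 1.13 and 14.8 in CF. Hepatocyte markers moved in the same direction as the 24 members, with 9 of 22 lower in CF and 0 higher (median -2.93). At d100 alone 25 members were lower (median -4.63, with 6.53% of all genes called in either direction). At d120 alone 5 were lower and 1 higher (median -0.46, with 18 of 34 below 0). Of all genes 22.7% were called in either direction at d120, so the d120 count does not set the members apart. At d120 alone ALAD, BLVRB, HBQ1, KLF1 and UROD were the 5 lower members.

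In WT gallbladder 29 of 34 members fell from d100 to birth, with a median of log2 -7.45, while 4.88% of all genes fell. Hepatocyte markers were lower at birth too, with sums of 274790 to 277695 CPM at d100 and 25463 to 68831 at birth. The part of liver RNA in the d100 libraries was not tested. AHSP ended at 0.685 and 0.0972 CPM (log2 -12.18 ± 1.41, adjusted p = 0.00633), ALAS2 at 1.09 and 0.117 (log2 -10.81 ± 1.16, adjusted p = 0.0053) and GATA1 at 0.15 and 0.117 (log2 -10.42 ± 0.94, adjusted p = 0.00359). SLC4A1 ended at 1.05 and 0.992 CPM (log2 -7.93 ± 1.68, adjusted p = 0.0286). TFRC (log2 -0.87 ± 0.85, adjusted p = 0.492), SLC25A37, SLC25A38, EPB41 and GFI1B were not called. Leaving out 1 of the 4 libraries left 8 to 16 calls, with 8 without WT birth replicate 1, and 1 unit per donor stem left 17. In CF gallbladder 0 of 34 members were called between d80 and d120 by edgeR (0% of all genes) and limma voom and 4 by DESeq2, and 19 were higher at an unadjusted p under 0.05 (5.47% of all genes). The d80 libraries differed most of all pairs, with ALAS2 at 61.4 and 46.9 CPM and SLC4A1 at 1.18 and 31.5 CPM, and 15 members were called without CF d80 replicate 2.

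The ratio of AHSP to SLC4A1 in CF gallbladder lay outside the range of fetal liver. AHSP per SLC4A1 was 0.763 and 0.414 in CF d100, 1.03 and 0.524 in CF d120 and 1.13 in CF d80 replicate 2, below the lowest fetal liver library of either genotype, 1.68. In WT gallbladder it was 9.25 and 5.89 at d100, within the range of WT liver, and 190 and 57.7 at d120, above every fetal liver library. CF d80 replicate 1 stood with the latter at 91.9, and it and WT d120 replicate 1 are the libraries with few genes above 0. Set as a share of CF liver over the 4 libraries of d100 and d120, AHSP had a median of 3.92%, KLF1 4.32%, HBM 5.06% and GATA1 5.67%, whereas SLC4A1 had 28.3%, TFRC 50.6% and SLC25A37 147%. EPB41 had 73.5% and SOX6 55.5%, and like TFRC these are used by cells other than erythroblasts. The ratio of APOC3 to APOB was 0.379 to 0.805 in these 4 CF libraries and 1.44 and 1.63 in WT d100 gallbladder. It was 0.329 in CF d80 replicate 2 and 2.09 in WT d120 replicate 2. In WT d120 replicate 1, where AHSP per SLC4A1 was 190, it was 1.102, below the WT d100 pair. In CF d80 replicate 1 it was 1.0, also below that pair, with APOC3 and APOB each at 0.31 CPM. These ratios thus did not rank alike throughout, and the part of APOC3 to APOB was not tested.

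**Figure D5:**
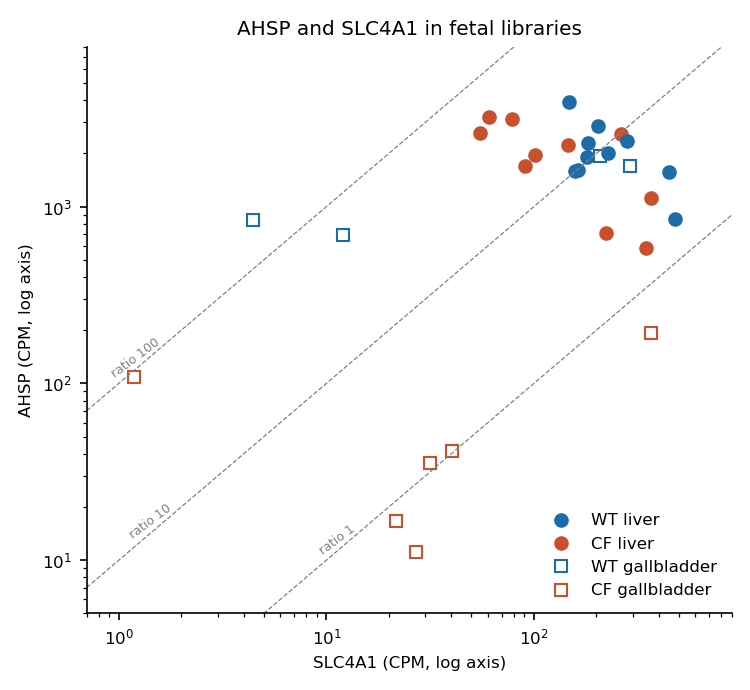
AHSP against SLC4A1 (CPM, log axes) in 30 fetal libraries, liver as filled circles and gallbladder as open squares, WT in blue and CF in orange, with dashed lines at ratios of 1, 10 and 100. The CF gallbladder squares lie near or below the line of ratio 1 except for 1 of the d80 squares, near ratio 100, and the WT d100 gallbladder squares lie among the liver circles.

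Libraries of 1 donor number in both tissues allowed the tissues to be set side by side within an animal. In WT donor SF1718-1 at d120 AHSP in gallbladder was 26.5% of its liver level, ALAS2 23.9%, SLC4A1 1.17% and ALB 30.9%. In CF donor SF1422 at d120 AHSP was 6.72%, ALAS2 20.3%, SLC4A1 21.0% and ALB 0.0842%. In CF donor SF1618-2 at d80 AHSP was 5.27%, ALAS2 5.36%, SLC4A1 1.07% and ALB 0.00933%. In WT donor WT2004, with term liver and birth gallbladder, AHSP was 85.3%, ALAS2 64.0%, SLC4A1 1379% and ALB 9.67%, from red cell levels that were at traces in both tissues. AHSP, ALAS2 and SLC4A1 each had a lower percentage than ALB in SF1718-1 and a higher one in the other 3 donors. Hepatocyte genes had medians of 29.9% in SF1718-1, 0.129% in SF1422, 0.0689% in SF1618-2 and 10.9% in WT2004. APOA1, also a hepatocyte marker, went the other way, at 286%, 77.9%, 150% and 642% in that order. It lay above AHSP and ALAS2 in each donor, and above SLC4A1 in all but WT2004. The donors of CF d100 could not be matched to single gallbladder columns and were left out here.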

How the data were processed

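RNA-seq tables of estimated counts per gene, as deposited by the authors, were used for 24 liver and 12 gallbladder libraries. Of values above 0, 0.277% were whole numbers in liver and 87.8% in gallbladder. The liver values may be scaled by gene length, which was not tested and bears on levels and ratios set across tissues. The submitters' processing notes name STAR 2.7.9a, Salmon 1.9.0 and 1.10.1, DESeq2, edgeR and limma without roles, and the genome build is not given in the sources used here. 6 chromatin libraries were not analysed. Values were rounded. Per tissue, genes passing filterByExpr were fitted with 1 mean per genotype and stage by edgeR 4.0.16 (R 4.3.3, TMM, quasi-likelihood F test, two-sided, Benjamini-Hochberg over all genes, threshold 0.05). DESeq2 1.42.0, limma 3.58.1 voom, other scaling, no filter, 1 unit per donor stem and leaving out each library were alternatives. The age line is a linear contrast of fetal group means, and SE follows from the F statistic. Genes named by number received symbols from RefSeq (ARS-UI_Ramb_v3.0), 127 in liver and 508 in gallbladder. Library totals limit precision for counting error only. The members, lists, tests and the rule for named genes (13 core members and any member past the threshold between genotypes in every library or group, others by the smallest p) were chosen with earlier results of these data known. The fit was tested on simulated data.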

Additional observations from a re-analysis of the deposited data

How the results depend on the processing

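Over 166 gene results and 1803 alternatives, 1530 kept direction and side of the threshold, 259 lost the call and 14 reversed. Of the 34 members, the fetal mean difference was called for 4 with DESeq2, 0 with 1 unit per donor stem and 1 without d65. At d65 1 was called with no filter and 1 with DESeq2, at d80 2 with DESeq2 and at d120 4 with DESeq2. At the end of gestation limma voom called 12. The CF line gave 3 calls with 1 unit per donor stem and 0 over d50 to d100, where HBQ1 reversed to 0.0024. The step from d50 to d65 gave 0 with DESeq2 size factors, 2 with no filter, 4 with DESeq2, 0 with limma voom and 0 per donor stem, and that from d100 to d120 gave 2 with DESeq2. In gallbladder, d120 alone gave 6 calls and reversed CPOX to 0.46, FECH to 0.21, HEMGN to 0.32, RHAG to 0.045, SPTB to 0.24, TAL1 to 0.10 and UROS to 0.11. The fall to WT birth gave 17 per donor stem, and the CF age change 4 with DESeq2. The cause of these shifts was not tested.

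Leaving out 1 library gave 1 to 2 calls for the fetal mean, 0 to 1 at d65, 14 to 19 at the end of gestation, 0 to 1 on the WT line, 1 to 13 on the CF line, 0 to 2 from d50 to d65, 32 to 33 from d120 to term, 31 to 33 from d120 to birth, 17 to 27 between gallbladder genotypes, 8 to 16 to WT birth in gallbladder and 0 to 15 with age in CF gallbladder. At the end of gestation the CF over WT value ran from -0.29 to 4.38 for AHSP, -0.75 to 6.90 for EPB42, -4.07 to 4.02 for ERMAP, -4.63 to 4.69 for KLF1, -1.91 to 5.22 for SLC4A1 and -2.32 to 6.41 for TRIM58. No paired analysis was possible because the labels give no replicate numbers and no 2 groups compared within a tissue share 2 donors. The donors that join liver and gallbladder lie in tables made separately. With 2 libraries per group, small differences were not detectable, and members at traces rest on few counts.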
